A study of Mus musculus with 12 samples.

Results

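A set of 10 genes of the oxidative stress response was followed in STHdhQ7 and STHdhQ111 cells, with and without an inflammatory challenge. They were chosen by name from the deposited table of 29428 genes, and each had 1 row. The 10 genes are the Nrf2 targets Hmox1, Nqo1, Slc7a11, Gclc, Gclm, Txnrd1 and Srxn1, and the antioxidant enzymes Sod1, Sod2 and Cat. All 10 passed the filter on low values, which kept 16127 genes. STHdhQ7 (STHdhQ7/Q7) and STHdhQ111 (STHdhQ111/Q111) are immortalized mouse striatal lines whose huntingtin carries 7 or 111 glutamines. Each genotype is represented by 1 line, so line and genotype cannot be told apart. Each line was measured nontreated (Q7-C and Q111-C) and after a challenge with IFNγ (100 ng/mL) plus LPS (5 μg/mL) that lasted 24 h (Q7-T and Q111-T). Poly(A) RNA-seq gave 3 libraries per group and 12 in all. In bulk RNA, more cells carrying a transcript and more transcript per cell cannot be told apart.

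Nrf2, encoded by Nfe2l2, is a transcription factor that is held in the cytoplasm and sent for degradation by Keap1. Oxidants and electrophiles modify Keap1, so that Nrf2 accumulates, pairs with a small Maf protein and binds antioxidant response elements in its target genes, where Bach1 competes as a repressor. Superoxide dismutases turn superoxide into hydrogen peroxide, which catalase and the thiol-based peroxidases remove. Sod2, the mitochondrial dismutase, is also a well-known NF-κB target.

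Estimated counts summed to between 57505990 and 96417834 per library. The challenge took hold in both lines, since Nos2, Irf1, Gbp2 and Cxcl10 were higher in every treated library than in every nontreated library of the same line. Q7-T replicate 2 and Q7-C replicate 1 stood apart in that long gene models were low relative to short ones, by 0.99 log2 units for Q7-T replicate 2 (-0.99) and by 0.64 for Q7-C replicate 1 (-0.64), against -0.17 to 0.36 in the other libraries. The root mean square deviation from the group mean over all genes was highest in Q7-T replicate 2, at 0.823 on the log2 scale, but did not separate Q7-C replicate 1 (0.592) from the others (0.34 to 0.618). The origin of these deviations was not tested. Of 6 neuronal markers, Tubb3, Map2 and Dlg4 passed the filter, Snap25 and Syp never reached 0.5 TPM and Rbfox3 had no row. Their summed level was 29.9 to 37.3 TPM in Q7-C, 63.8 to 95.2 in Q7-T, 17.3 to 20.3 in Q111-C and 39.2 to 45.3 in Q111-T. These sums followed Tubb3, whose mean went from 16.9 to 74.6 TPM in Q7 and from 3.91 to 24.7 TPM in Q111, whereas Map2 went from 7.93 to 2.13 TPM in Q7 and from 5.9 to 5.61 TPM in Q111. Of 7 markers of medium spiny neurons, Penk and Ppp1r1b passed, Adora2a and Bcl11b stayed under 0.5 TPM, and Drd1, Drd2 and Tac1 had no row, with sums of at most 0.857 TPM in STHdhQ7 cells, 5.18 to 6.8 in Q111-C and 2.27 to 2.57 in Q111-T. Of 6 astrocyte markers, Slc1a3 and Aldh1l1 passed and Gfap, Aqp4, S100b and Slc1a2 stayed under 0.5 TPM, with sums of at most 1.98 TPM in STHdhQ7 cells, 9.01 to 11.1 in Q111-C and 4.16 to 5.24 in Q111-T. Between Q111-C and Q111-T the mean of Slc1a3 went from 9.86 to 2.75 TPM and that of Aldh1l1 the other way, from 0.0384 to 1.32 TPM. Of 8 markers of microglia or macrophages, Cd68 passed, Csf1r, Itgam, Ptprc, P2ry12 and Adgre1 stayed under 0.5 TPM, and Aif1 and Cx3cr1 had no row. Cd68 was at 5.8 to 8.24 TPM in Q7-C, 8.69 to 15.1 in Q7-T, 14.2 to 16.5 in Q111-C and 40.3 to 57.5 in Q111-T, so that it moved with line and treatment. All 7 mesenchymal markers passed, with sums of 4350 to 5150 TPM in Q7-C, 3340 to 3880 in Q7-T, 4310 to 4530 in Q111-C and 1740 to 2070 in Q111-T. Between the nontreated lines these markers moved in both directions. Acta2 was at 1600 to 1790 TPM in Q7-C and at 24.6 to 56.0 in Q111-C, whereas Col1a1, Col1a2, Col3a1, Fn1 and Pdgfrb were higher in every Q111-C than in every Q7-C library (Col1a1 at 779 to 806 against 245 to 300.0 TPM). The part of these markers in the results below was not tested.

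Promoter sequences of RefSeq (GRCm38.p6) were matched for 8 of the 10 genes, and not for Hmox1 and Gclc. They were searched on both strands, from 250 bases before to 50 bases after the start, for the core of the antioxidant response element in 2 spellings and for an NF-κB motif. TGACNNNGC was found for Gclm, Txnrd1, Srxn1 and Sod1, and is held by 12.4% of all 32851 windows of this length. TGATNNNGC was found for Slc7a11 and is held by 8.09% of all windows. No window of the 8 genes held the NF-κB motif, which occurs in 0.411% of all windows. The 250 bases before the start are shown for 3 genes whose levels rose in Q111-T and for Sod1, which did not pass the test in any comparison with all 12 libraries, with the match in capitals. All 4 matches read on the strand opposite to the gene. Gclm is at chr3:122245307-122245556 (+), Slc7a11 at chr3:50443614-50443863 (-), the second of 3 Txnrd1 starts at chr10:82858956-82859205 (+), and Sod1 at chr16:90220512-90220761 (+).
Gclm: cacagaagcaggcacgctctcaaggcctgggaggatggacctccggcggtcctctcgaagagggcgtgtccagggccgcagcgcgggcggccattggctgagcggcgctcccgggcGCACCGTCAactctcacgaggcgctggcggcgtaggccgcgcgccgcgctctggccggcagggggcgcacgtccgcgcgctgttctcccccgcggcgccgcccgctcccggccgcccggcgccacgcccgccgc
Slc7a11: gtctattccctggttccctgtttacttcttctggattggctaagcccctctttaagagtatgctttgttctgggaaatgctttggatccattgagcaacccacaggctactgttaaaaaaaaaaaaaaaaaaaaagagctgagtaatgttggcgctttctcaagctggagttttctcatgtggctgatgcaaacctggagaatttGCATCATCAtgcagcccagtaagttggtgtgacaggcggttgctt
Txnrd1: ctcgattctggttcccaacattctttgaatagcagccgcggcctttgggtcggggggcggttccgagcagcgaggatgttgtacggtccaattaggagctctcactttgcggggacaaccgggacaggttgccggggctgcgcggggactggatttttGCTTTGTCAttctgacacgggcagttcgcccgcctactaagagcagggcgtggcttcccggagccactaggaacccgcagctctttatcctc
Sod1: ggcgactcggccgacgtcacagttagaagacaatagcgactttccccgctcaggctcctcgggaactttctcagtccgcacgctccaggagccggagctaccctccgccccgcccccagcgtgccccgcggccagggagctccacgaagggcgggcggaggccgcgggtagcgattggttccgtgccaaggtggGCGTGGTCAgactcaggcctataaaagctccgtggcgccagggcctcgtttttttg
The match lay 134 to 126 bases before the start in Gclm (-134 to -126), 45 to 37 in Slc7a11 (-45 to -37), 92 to 84 in Txnrd1 (-92 to -84) and 56 to 48 in Sod1 (-56 to -48). In Srxn1 it lay 29 to 37 bases after the start, and Slc7a11 held a second match at 42 to 50 bases after it. These matches describe letters only.

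The first question was how each line responded to IFNγ/LPS. In STHdhQ111 cells 8 of the 10 genes rose and none fell, namely all 7 Nrf2 targets and Sod2, while Sod1 and Cat did not pass the test. In STHdhQ7 cells only Sod2 passed the test. A gene was called when its adjusted p was under 0.05 in edgeR's quasi-likelihood test over all genes. Of all genes tested, 11.3% were called higher and 7.33% lower in Q111-T vs. Q111-C, and 3.61% higher and 1.74% lower in Q7-T vs. Q7-C. The median log2 fold change of the 10 genes was 1.24 in Q111 and 0.32 in Q7, against -0.0 and 0.0 over all genes. The TPM values of treated and nontreated libraries did not overlap for 8 of the 10 genes in Q111, where 49.6% of all genes did not overlap, and for 1 in Q7, where 14.4% did not. In Q7-T vs. Q7-C, 2 of the 7 Nrf2 targets, Gclm and Slc7a11, were higher with an unadjusted p under 0.05 in edgeR, against 8.62% of all genes. Neither DESeq2 nor limma on log2(TPM + 0.5) called a further member there. The edgeR fit without Q7-T replicate 2 called 2 members, with Txnrd1 (adjusted p = 0.0297) added. Without both libraries that stood apart it called 3, with Txnrd1 (adjusted p = 0.0349) and Hmox1 (adjusted p = 0.00151) added. That last fit also called 13 of the 69 further redox genes described below, against 6 with all libraries.

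The responses of the lines were compared directly by the interaction of cell line and treatment. It passed the test for 6 of the 10 genes, each with the larger response in STHdhQ111 cells: Hmox1, Nqo1, Gclm, Slc7a11, Srxn1 and Sod2. Of all genes, 3.94% were called with a larger and 1.75% with a smaller log2 fold change in Q111. Gclc and Txnrd1 missed the threshold, with adjusted p of 0.0548 and 0.0811. Without the pair of libraries that stood apart, both passed it, with differences of 1.53 and 0.89 log2 units. Of the 6 calls, those of Nqo1 and Gclm held under all 23 alternatives. The call of Hmox1 was lost under 14 of them (adjusted p up to 0.112), that of Sod2 under 9 (up to 0.0975), that of Srxn1 under 8 (up to 0.0798) and that of Slc7a11 under the 3 limma fits on TPM (up to 0.115). For Hmox1, Sod2 and Srxn1 the losses included leaving out any 1 Q111-C library, with the same direction each time.

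**Figure D1:**
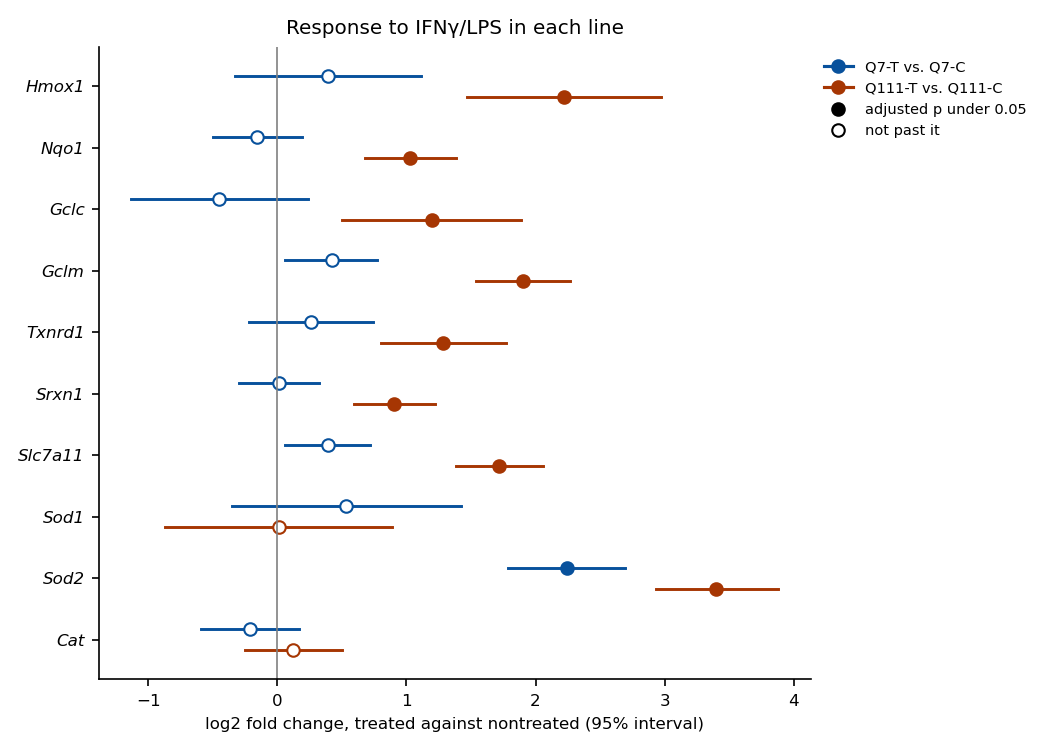
Log2 fold change of each gene after IFNγ/LPS (x axis, TMM-scaled counts) in STHdhQ7 (blue) and STHdhQ111 cells (brown), with 95% intervals from edgeR and filled points for adjusted p under 0.05. The brown points of all 7 Nrf2 targets and Sod2 are filled and lie between 0.90 and 3.40, whereas Sod2 is the one filled blue point, at 2.24.

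Hmox1 encodes heme oxygenase-1, which breaks heme down to biliverdin, iron and carbon monoxide, and was at chr8:75093621-75100589. Its level was 248, 220 and 192 TPM in Q7-C and 417, 89.6 and 351 TPM in Q7-T. In STHdhQ111 cells it was 132, 144 and 134 TPM when nontreated and 638, 598 and 538 TPM after IFNγ/LPS. All Q111-T libraries thus lay above all other libraries, while Q7-T spread on both sides of Q7-C. The log2 fold change was 2.22 ± 0.34 (SE) in Q111 (edgeR, adjusted p = 0.000752) and 0.39 ± 0.33 in Q7 (adjusted p = 0.669). The lines differed in response by 1.84 ± 0.47 log2 units (adjusted p = 0.0423). The Q7 value depended on the low Q7-T replicate 2. It was 0.73 without that library (adjusted p = 0.0804) and 0.98 without both deviating libraries (adjusted p = 0.00151), when Hmox1 counted as risen in Q7 too. The difference between the lines was then 1.25 (adjusted p = 0.00166).

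Nqo1, an NADPH-dependent reductase that converts quinones to hydroquinones, was at chr8:107388225-107403206. It was at 163, 241 and 196 TPM in Q7-C and at 165, 132 and 168 TPM in Q7-T. In Q111-C it was at 206, 219 and 205 TPM, and in Q111-T at 415, 406 and 369 TPM. The treated STHdhQ111 libraries stood above all others, and the Q7 groups overlapped. Nqo1 rose by 1.03 ± 0.16 log2 units in Q111 (edgeR, adjusted p = 0.000821). The log2 fold change in Q7 was -0.16 ± 0.16 (adjusted p = 0.726), and the difference between the lines was 1.18 ± 0.22 (adjusted p = 0.0105).

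Slc7a11 encodes the light chain of the cystine/glutamate exchanger that supplies cysteine for glutathione, and was at chr3:49892526-50443614. It was the lowest of the 10 genes per length in all 4 groups. It was at 4.4, 7.22 and 8.03 TPM in Q7-C, and at 9.68, 4.76 and 8.41 TPM in Q7-T. Q111-C held 5.13, 5.53 and 5.83 TPM, and Q111-T held 18.9, 12.7 and 19.8 TPM. Treated and nontreated libraries were separate in Q111 and overlapped in Q7. The rise was 1.72 ± 0.15 log2 units in Q111 (edgeR, adjusted p = 1.29e-05), against 0.39 ± 0.15 in Q7 (adjusted p = 0.219). The difference between the lines was 1.33 ± 0.21 (adjusted p = 0.00424). The region of Slc7a11 overlaps Gm37692 and Gm37498 on the same strand, and reads could be shared with them.

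Gclc and Gclm encode the catalytic and the modifier subunit of glutamate-cysteine ligase, the first enzyme of glutathione synthesis. Gclc was at chr9:77754535-77794485 and Gclm at chr3:122245557-122270732, where Gm6061 overlaps on the same strand. Gclm was at 21.6, 25.4 and 30.2 TPM in Q7-C and at 41, 18.2 and 34.8 TPM in Q7-T. It was at 15.1, 15.5 and 16.9 TPM in Q111-C and at 51.8, 59.7 and 52.8 TPM in Q111-T. Each Q111-T library was above the highest library of every other group. Gclm rose by 1.90 ± 0.17 log2 units in Q111 (edgeR, adjusted p = 1.03e-05), with 0.42 ± 0.16 in Q7 (adjusted p = 0.221) and a difference of 1.49 ± 0.23 between the lines (adjusted p = 0.00341). Gclc was at 20.2, 40.7 and 46.7 TPM in Q7-C and at 35.3, 7.51 and 30.8 TPM in Q7-T. In Q111-C it was at 24.0, 26.8 and 26.2 TPM, and in Q111-T at 57.8, 48.5 and 58.6 TPM. Here too Q111-T exceeded all other libraries, but the Q7 libraries varied widely. Gclc rose by 1.2 ± 0.32 log2 units in Q111 (edgeR, adjusted p = 0.0203). The call was lost with limma on log2(TPM + 0.5), where adjusted p was 0.171, and when any 1 Q111 library was left out (adjusted p up to 0.186 over all alternatives). It was kept under 15 of the 24 alternatives, with adjusted p = 2.42e-05 in the edgeR fit of the 6 Q111 libraries alone. In Q7 the value was -0.45 ± 0.31 (adjusted p = 0.585), and -0.10 without Q7-T replicate 2 (adjusted p = 0.882). The ratio of Gclm to Gclc in TPM was 0.58 to 0.643 in Q111-C and 0.896 to 1.23 in Q111-T. In Q7-C it was 0.624 to 1.07, and in Q7-T it was 1.13 to 2.43, the highest value being that of replicate 2.

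Txnrd1 and Srxn1 act in the thioredoxin system. Txnrd1, the cytosolic thioredoxin reductase, was at chr10:82833951-82897712, and Eid3 overlaps it on the same strand. Its level was 72.6, 117 and 122 TPM in Q7-C and 155, 47.3 and 143 TPM in Q7-T. In Q111-C it was 81.2, 89.3 and 83.8 TPM and in Q111-T 220, 159 and 201 TPM. The Q111-T libraries were again the highest, and Q7-T replicate 2 was the lowest of all 12. Txnrd1 rose by 1.28 ± 0.22 log2 units in Q111 (edgeR, adjusted p = 0.00165), and the call was lost with limma on log2(TPM + 0.5) (adjusted p = 0.0581). It was kept under 21 of the 24 alternatives, with adjusted p = 4.13e-05 in the edgeR fit of the 6 Q111 libraries alone. In Q7 the log2 fold change was 0.26 ± 0.22 (adjusted p = 0.667), but 0.52 without Q7-T replicate 2 (adjusted p = 0.0297) and 0.40 without both deviating libraries (adjusted p = 0.0349). Srxn1 encodes sulfiredoxin, which reactivates overoxidized peroxiredoxins, and was at chr2:152105516-152109322. Srxn1 was at 58.9, 85.6 and 83.7 TPM in Q7-C and at 66.6, 57.5 and 73.1 TPM in Q7-T. It was at 79.5, 79.2 and 78.7 TPM in Q111-C and at 154, 119 and 143 TPM in Q111-T. Its nontreated levels overlapped between the lines, and the Q111-T libraries were separate from all others. Srxn1 rose by 0.90 ± 0.14 log2 units in Q111 (edgeR, adjusted p = 0.000891), with 0.01 ± 0.14 in Q7 (adjusted p = 0.979, and -0.14 without Q7-T replicate 2) and a difference of 0.89 ± 0.20 (adjusted p = 0.0238).

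Sod2, the manganese superoxide dismutase of mitochondria, was at chr17:13006846-13037398 and had the widest range of group means among the 10 genes (3.39 log2 units). It was at 12, 11.9 and 11.6 TPM in Q7-C and at 55.3, 43.0 and 49.7 TPM in Q7-T. In STHdhQ111 cells it went from 8.36, 7.97 and 7.74 TPM to 78.6, 86.5 and 70.5 TPM. No pair of groups overlapped. Sod2 rose by 2.24 ± 0.21 log2 units in Q7 (edgeR, adjusted p = 3.07e-05) and by 3.40 ± 0.22 in Q111 (adjusted p = 9.92e-07). The response was larger in Q111 by 1.16 ± 0.28 (adjusted p = 0.0329). Sod1, the cytosolic copper/zinc dismutase at chr16:90220754-90226329, was at 65, 45.2 and 42.7 TPM in Q7-C and at 47.5, 86.2 and 49.2 TPM in Q7-T. It was at 79.2, 79.2 and 75.3 TPM in Q111-C and at 73.3, 76.2 and 68.3 TPM in Q111-T. The highest Sod1 level in each Q7 group was that of the library that stood apart. The log2 fold change after treatment was 0.53 ± 0.40 in Q7 (edgeR, adjusted p = 0.628) and 0.01 ± 0.40 in Q111 (adjusted p = 0.996), with 95% intervals of -0.35 to 1.42 and -0.87 to 0.89. The Q7 value turned to -0.17 without Q7-T replicate 2 (adjusted p = 0.867) and was 0.22 without both deviating libraries (adjusted p = 0.435). Scaf4 overlaps Sod1 on the opposite strand. The ratio of Sod2 to Sod1 in TPM was 0.101 to 0.106 in Q111-C and 1.03 to 1.13 in Q111-T. In Q7 it was 0.185 to 0.271 before and 0.499 to 1.16 after treatment.

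Cat encodes catalase, the peroxisomal enzyme that splits hydrogen peroxide, and was at chr2:103453849-103485160. It was at 23.0, 39.4 and 41.7 TPM in Q7-C and at 36.5, 14.2 and 30.9 TPM in Q7-T. In Q111-C it was at 84.1, 95.9 and 91.1 TPM and in Q111-T at 86.6, 90.1 and 97.8 TPM. The lines were separate in either condition, and treated and nontreated libraries overlapped within each line. The log2 fold change after treatment was 0.12 ± 0.17 in Q111 (edgeR, adjusted p = 0.718, 95% interval -0.25 to 0.50) and -0.21 ± 0.17 in Q7 (adjusted p = 0.667, 95% interval -0.59 to 0.17).

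**Figure D2:**
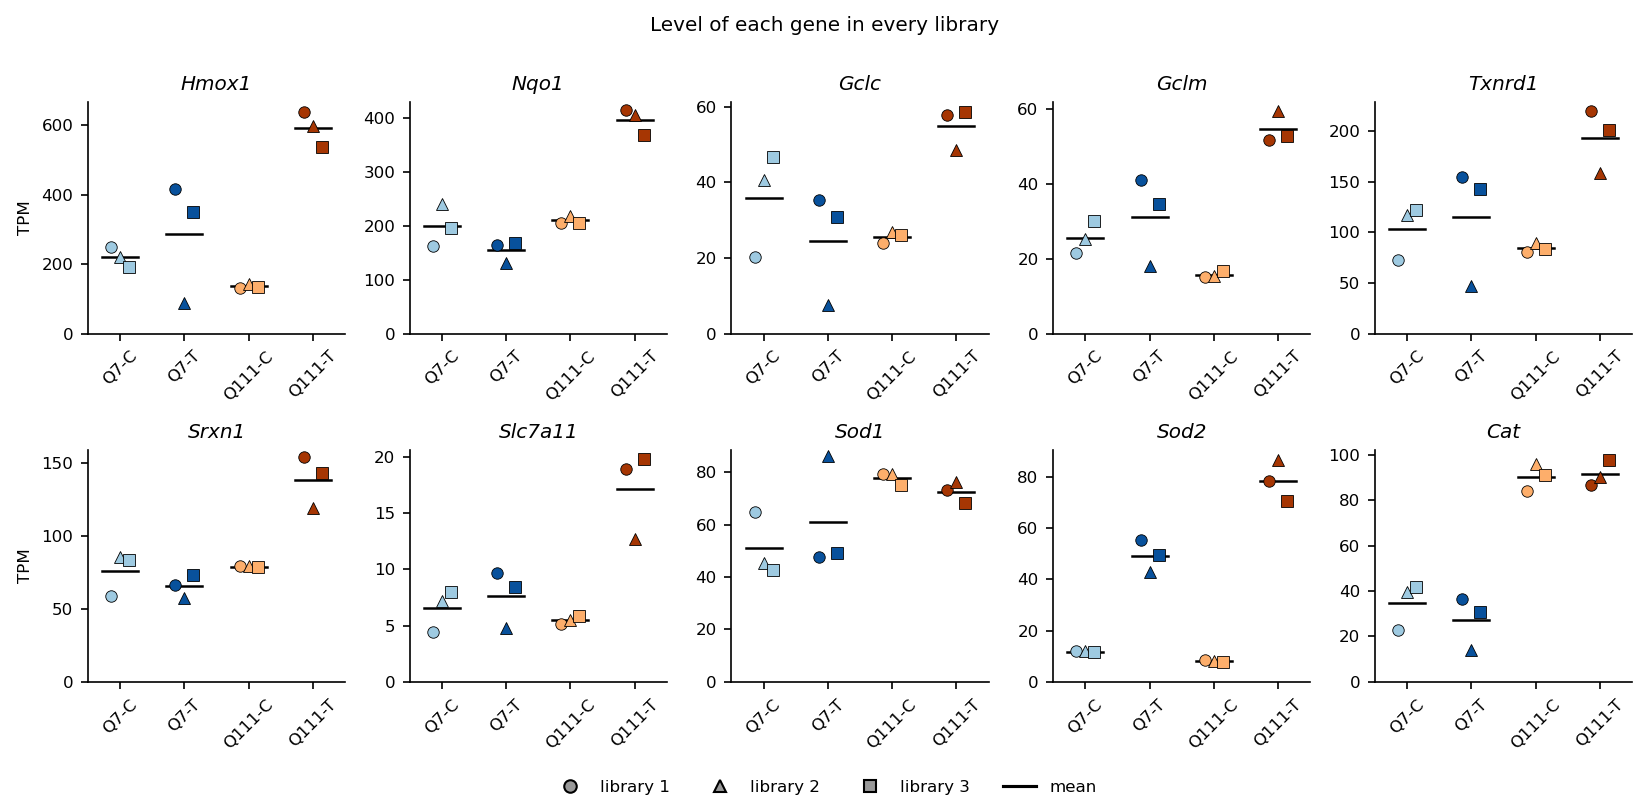
TPM (y axis, linear, one scale per gene) of the 10 genes in each of the 12 libraries, by group on the x axis, with lines at the group means and marker shapes for the 3 libraries of a group. The Q111-T libraries are above all others for the 7 Nrf2 targets and Sod2, and Cat separates the lines and not the treatments. The triangle of Q7-T (replicate 2) is the lowest of its group for every gene except Sod1, where it is the highest.

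The spread between libraries was unequal among the groups. In Q111-C the SD of Hmox1 was 6.42 TPM around a mean of 137 TPM, and in Q7-T it was 173 TPM around 286 TPM. On the scale of TMM-scaled log2 CPM, Q7-T replicate 2 was below its group mean by 0.92 for Hmox1 (-0.92), by 0.95 for Gclc (-0.95) and by 0.63 for Txnrd1 (-0.63), and above it by 1.03 for Sod1. Q7-C replicate 1 deviated by 0.69 for Sod1, by 0.49 for Hmox1 and by -0.43 for Gclc. Their deviations over all genes correlated at 0.46. The largest absolute deviation in STHdhQ111 cells was 0.32, for Sod2 in Q111-T replicate 2.

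**Figure D3:**
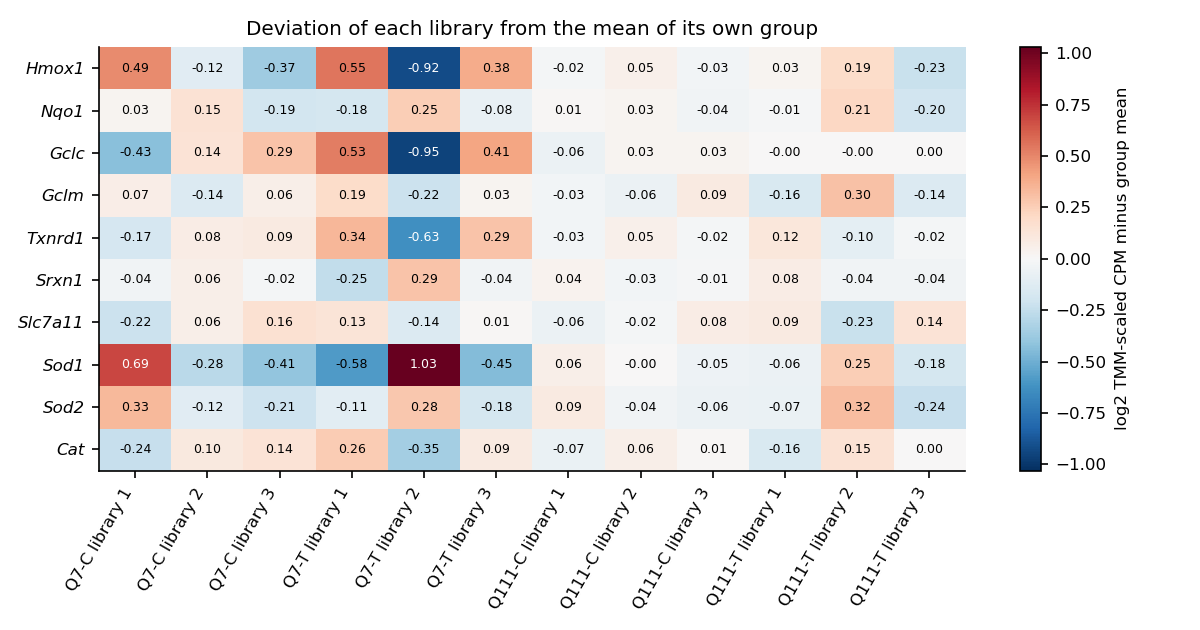
Deviation of each library (columns) from the mean of its own group for the 10 genes (rows), in log2 TMM-scaled CPM, with red for higher and blue for lower. Q7-T replicate 2 holds the extreme values, from -0.95 for Gclc to 1.03 for Sod1, whereas the Q111-C columns stay within 0.09 of their mean.

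The lines were next compared without treatment. In Q111-C vs. Q7-C, Hmox1, Gclm, Slc7a11 and Sod2 were lower in STHdhQ111 cells and Cat was higher, 5 of the 10 genes in all. Of all genes, 11.1% were called higher and 11.6% lower. The TPM groups did not overlap for 5 of the 10 genes, Hmox1, Gclm, Sod1, Sod2 and Cat, and for 51.4% of all genes. The share of members that were separate was thus close to that of all genes. Cat was higher by 1.10 ± 0.18 log2 units (edgeR, adjusted p = 0.000758), with 90.4 ± 5.90 TPM (SD, n = 3) in Q111-C against 34.7 ± 10.2 TPM in Q7-C. Gclm was lower, with a log2 fold change of -1.01 ± 0.16 (adjusted p = 0.000797). Hmox1 followed with -1.05 ± 0.33 (adjusted p = 0.0402), Sod2 with -0.90 ± 0.20 (adjusted p = 0.00632) and Slc7a11 with -0.54 ± 0.15 (adjusted p = 0.023). The calls of Sod2 and Cat held under all 24 alternatives. That of Hmox1 was lost under 13 and that of Slc7a11 under 9, in both cases also without Q7-C replicate 2 or any 1 Q111-C library.

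These differences between the lines depended on the scale. On the TPM scale the median log2 fold change of all genes moved from -0.02 to 0.274 in Q111-C vs. Q7-C and from -0.029 to 0.341 in Q111-T vs. Q7-T. In limma on log2(TPM + 0.5), Sod2 (-0.53, adjusted p = 0.0197) and Cat (1.41, adjusted p = 0.00732) stayed past the threshold. Hmox1 was then at -0.68 (adjusted p = 0.308), Gclm at -0.67 (adjusted p = 0.0879) and Slc7a11 at -0.20 (adjusted p = 0.677). Nqo1 and Srxn1 turned from -0.24 each to 0.09 and 0.08, and passed the test on neither scale. For Sod1 the log2 fold change was 0.23 ± 0.40 (edgeR, adjusted p = 0.748), but 0.65 without the libraries that stood apart (adjusted p = 0.00239). Without them Gclc (-0.94) and Txnrd1 (-0.66) were called lower in Q111-C as well, so that 8 genes differed. That fit also called 32 of the 69 further redox genes described below, against 22 with all libraries. The share of all genes it called is not given here.

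After IFNγ/LPS, 6 of the 10 genes were higher in STHdhQ111 than in STHdhQ7 cells and none was lower. Of all genes tested in Q111-T vs. Q7-T, 19.8% were called higher and 18.7% lower. The TPM values of 9 of the 10 genes, Sod1 being the exception, did not overlap between the treated lines, against 46.3% of all genes. Cat differed by 1.43 ± 0.18 log2 units (edgeR, adjusted p = 9.27e-05), Nqo1 by 0.94 ± 0.16 (adjusted p = 0.000828) and Slc7a11 by 0.79 ± 0.15 (adjusted p = 0.00179). Srxn1 differed by 0.64 ± 0.14 (adjusted p = 0.0043), Gclc by 0.89 ± 0.31 (adjusted p = 0.0422) and Gclm by 0.47 ± 0.16 (adjusted p = 0.037). Hmox1 (0.79 ± 0.33, adjusted p = 0.0797), Txnrd1 (0.44 ± 0.22, adjusted p = 0.131), Sod2 (0.26 ± 0.20, adjusted p = 0.311) and Sod1 (-0.29 ± 0.40, adjusted p = 0.589) did not pass the test. Without both libraries that stood apart, Hmox1 (0.49, adjusted p = 0.0106), Sod2 (0.45, adjusted p = 0.0253) and Sod1, which turned to 0.45 (adjusted p = 0.0129), passed as well, so that 9 genes were called. That fit also called 43 of the 69 further redox genes described below, against 32 with all libraries. The share of all genes it called is not given here. Limma on log2(TPM + 0.5) called 8 genes, with Hmox1 at 1.32 (adjusted p = 0.0362) and Sod2 at 0.67 (adjusted p = 0.00393), and DESeq2 called 7, with Hmox1 at 0.79 (adjusted p = 0.045). Without Q7-T replicate 2 alone, Gclm fell short of the threshold (0.37, adjusted p = 0.0816), Gclc was at 0.56 (adjusted p = 0.0347) and Txnrd1 at 0.19 (adjusted p = 0.259). The call of Gclc was lost under 10 of 24 alternatives and that of Gclm under 9, with adjusted p up to 0.109 and 0.127, whereas Cat, Nqo1, Slc7a11 and Srxn1 held under all 24. Both comparisons of lines share libraries with the treatment comparisons, so that they are not independent of them. For single genes, the two-sided exact permutation test on TPM could not go below p = 0.1 with 3 libraries against 3. It gave that value for every pair of groups that did not overlap.

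**Figure D4:**
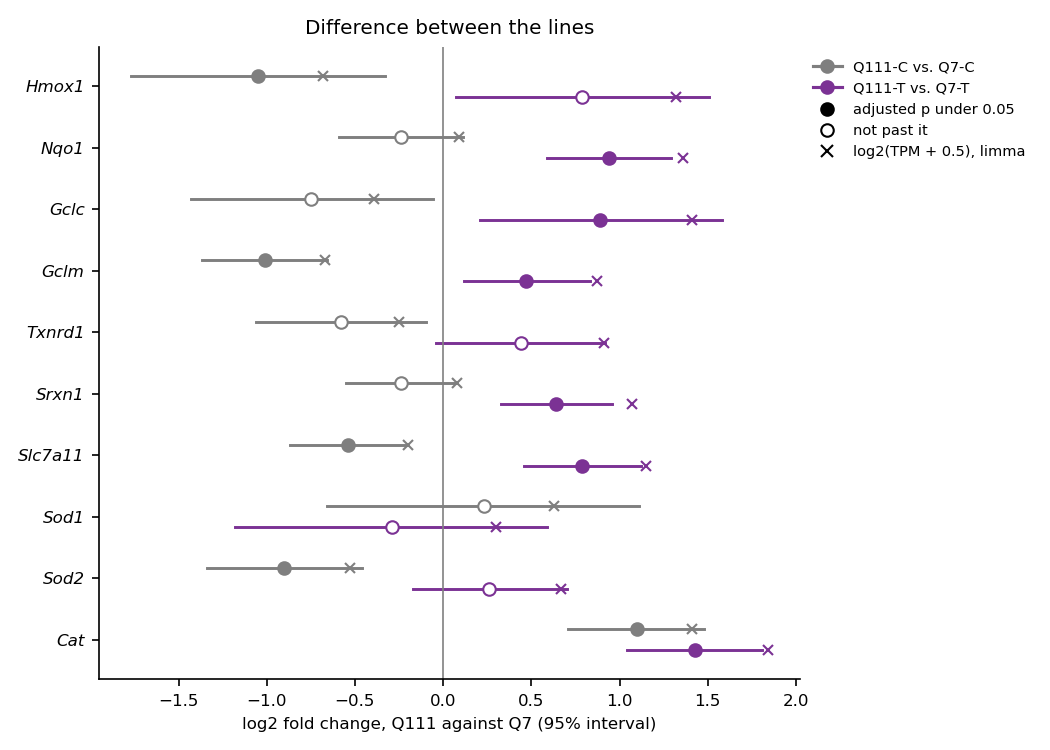
Log2 fold change of STHdhQ111 against STHdhQ7 cells (x axis) for each gene, nontreated (grey) and after IFNγ/LPS (purple), with edgeR's 95% intervals, filled points for adjusted p under 0.05, and crosses for limma on log2(TPM + 0.5). All 7 Nrf2 targets are below 0 in grey and above 0 in purple with TMM-scaled counts. On the TPM scale every cross lies to the right of its point, and those of Nqo1 (0.09) and Srxn1 (0.08) pass 0 in grey.

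Ordered by mean level, Hmox1 and Nqo1 led the 10 genes in every group. In Q7-T the libraries of Hmox1 overlapped those of Nqo1, and the libraries of Nqo1 overlapped those of Txnrd1. In Q7-C Hmox1 had a mean of 220 TPM, and its libraries overlapped those of Nqo1. In Q111-C Nqo1 (210 TPM) was above Hmox1 (137 TPM) without overlap, and in Q111-T Hmox1 (591 TPM) was above Nqo1 (397 TPM) without overlap. Cat came next in Q111-C, with 90.4 TPM, and its libraries overlapped those of Txnrd1. In Q7-C it was at 34.7 TPM, and its libraries overlapped those of Gclc and Gclm. Sod2 was above Slc7a11 alone in Q7-C (11.8 TPM) and in Q111-C (8.02 TPM). It reached the level of Sod1 in Q7-T (49.3 against 61 TPM) and in Q111-T (78.5 against 72.6 TPM), with overlap in both.

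The wider redox list held 77 other genes of Nrf2 regulation, glutathione, thioredoxin, NADPH, heme and iron, quinone and carbonyl metabolism, superoxide and metallothioneins, of which 69 passed the filter. After IFNγ/LPS, 19 of the 69 changed in STHdhQ111 cells, 16 up and 3 down, and 6 rose in STHdhQ7 cells. The numbers called were 34 in Q111 and 13 in Q7 without both libraries that stood apart. With fits on 6 libraries they were 32 and 3. Over all genes tested, 11.3% were called up and 7.33% down in Q111, and 3.61% up in Q7. The median log2 fold change of the list was 0.31 in Q111 and 0.16 in Q7, against -0.0 and 0.0 over all genes. The interaction was called for 6 of the 69, 5 with the larger and 1 with the smaller response in Q111. Over all genes these shares were 3.94% and 1.75%. The median interaction of the list was 0.01, against -0.02 over all genes. In Q111-T vs. Q7-T, 16 list genes were higher and 16 lower, against 19.8% and 18.7% of all genes. Among the regulators, Nfe2l2 itself rose in Q111 by 1.06 ± 0.18 log2 units (edgeR, adjusted p = 0.00145), from 61.2, 66.5 and 66.6 TPM to 117, 122 and 136 TPM. In Q7 it was at 0.29 ± 0.18 (adjusted p = 0.517), and the difference between the lines did not pass the test (0.77 ± 0.25, adjusted p = 0.105). Keap1 was at 0.10 in Q111 and 0.08 in Q7. Bach1 did not pass the test for treatment either (0.07 and 0.36), but exceeded its Q7-C level in Q111-C by 1.2 ± 0.27 (adjusted p = 0.0066). Mafk, a small Maf partner of Nrf2, rose by 2.22 ± 0.14 in Q111 (adjusted p = 8.62e-07) with 0.36 ± 0.13 in Q7 (adjusted p = 0.189), and the responses differed by 1.86 ± 0.19 (adjusted p = 0.000302).

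In the glutathione group, Slc3a2, the heavy chain that Slc7a11 pairs with, rose in Q111 by 0.86 ± 0.19 log2 units (edgeR, adjusted p = 0.00756), from 125, 127 and 117 TPM to 209, 213 and 199 TPM. It remained below the Q7 libraries, which ranged from 227 to 265 TPM in Q7-T, and Q111-T vs. Q7-T was -0.69 ± 0.19 (adjusted p = 0.0136). Gss, which completes glutathione, and Gsr, which reduces it, were at 0.19 and 0.31 in Q111 and at -0.06 and -0.12 in Q7, with adjusted p between 0.585 and 0.932. Ggct, which acts on γ-glutamyl peptides, rose in both lines, by 2.05 in Q7 and 2.33 in Q111. Its levels were low, at 0.489 to 0.932 TPM nontreated and 2.32 to 4.37 TPM treated. Glrx, a glutaredoxin, rose by 2.12 in Q7 and 1.88 in Q111. Chac1, a glutathione-degrading enzyme, was lower in Q111-C than in Q7-C by 1.63 log2 units (-1.63 ± 0.20, adjusted p = 0.000103). Gpx7, a glutathione peroxidase family member, was at 5.72 to 7.18 TPM in Q111-C and at 0 to 0.37 TPM in Q7-C, with 2 of the 3 Q7-C libraries at 0, so that no fold is given.

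In the thioredoxin and peroxiredoxin group, Prdx1 rose in Q111 by 1.11 ± 0.25 log2 units (edgeR, adjusted p = 0.00844), and was at 0.45 ± 0.25 in Q7 (adjusted p = 0.439). Sesn2, a stress-induced sestrin, showed the largest difference of response in the list. It was at 27.0, 39.2 and 40.3 TPM in Q7-C and at 40.8, 20.2 and 46.3 TPM in Q7-T. It was at 30.1, 30.9 and 30.4 TPM in Q111-C and at 178, 129 and 175 TPM in Q111-T. Only Q111-T stood above the rest, and the responses differed by 2.33 ± 0.20 (adjusted p = 0.000172). Txnip, an inhibitor of thioredoxin, rose in both lines, by 0.93 in Q7 and by 1.61 in Q111, and was higher in STHdhQ111 cells both without (1.14) and with treatment (1.82). Sesn3, another sestrin, was higher in Q111-C by 1.80 ± 0.25 (adjusted p = 0.000326). Txnrd3, a further thioredoxin reductase, fell in Q111 (-0.93 ± 0.17, adjusted p = 0.0024). Txn1 passed the test in no comparison, and mitochondrial Txn2 was lower in Q111-T than in Q7-T (-1.25 ± 0.28, adjusted p = 0.00441).

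Of the NADPH enzymes, Tkt (-0.65 ± 0.16, edgeR, adjusted p = 0.0141) and Idh1 (-0.55 ± 0.17, adjusted p = 0.0386) fell in Q111 after treatment, while G6pdx was at 0.17 in Q111 and 0.56 in Q7 (adjusted p = 0.519 and 0.0557). Osgin1, an Nrf2 target, rose in Q111 by 1.16 ± 0.20 (adjusted p = 0.00159) and was at -0.27 ± 0.20 in Q7 (adjusted p = 0.592). The difference was 1.43 ± 0.28 (adjusted p = 0.0115). Its nontreated level was lower in Q111-C by 1.45 log2 units (-1.45). Pir, which encodes pirin, was low in STHdhQ7 cells, with 0.0175 to 0.143 TPM over 6 libraries, and at 4.57 to 7.19 TPM in STHdhQ111 cells. Xdh, a source of superoxide and urate, moved the other way. It rose from 1.25, 2.50 and 2.65 TPM to 37.4, 16.5 and 42.7 TPM in Q7, and from 2.45, 3.55 and 3.34 TPM to 20.1, 11.2 and 21.5 TPM in Q111. Its response was smaller in Q111, by -1.49 ± 0.35 (adjusted p = 0.0286). Sod3, the extracellular dismutase, rose in Q7 by 1.23 ± 0.21 (adjusted p = 0.00338). In Q111 it was at 0.57 ± 0.20 (adjusted p = 0.0786), and the interaction did not pass the test (adjusted p = 0.226).

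**Figure D5:**
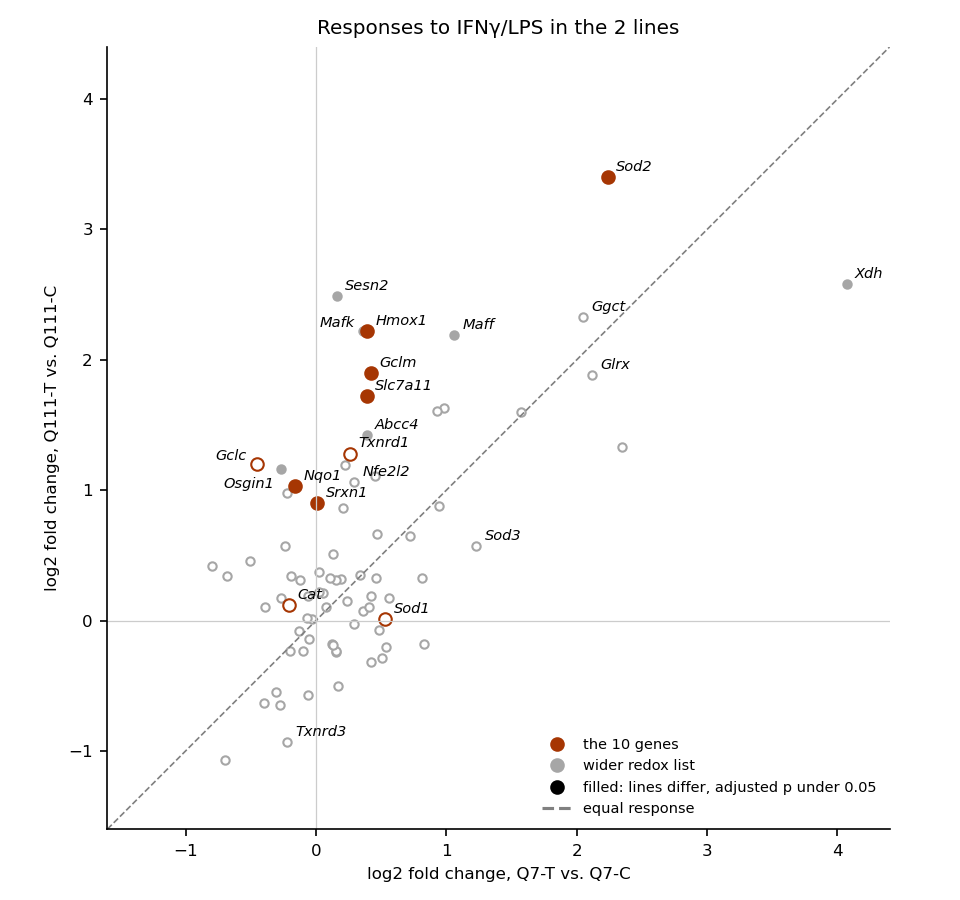
Log2 fold change after IFNγ/LPS in STHdhQ7 cells (x axis) against STHdhQ111 cells (y axis) for the 10 genes (brown) and 69 further redox genes (grey), with filled points where the interaction had an adjusted p under 0.05 and a dashed line of equal response. Of the 10 genes, 6 are filled and lie above the line with Sesn2, Mafk, Maff, Abcc4 and Osgin1, while Xdh (4.07 in Q7, 2.58 in Q111) is filled below it.

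Over the 12 libraries, the genes with the pattern most like the 3 widest-ranging members were named as a description, with Pearson's r of log2 CPM. Libraries of a group and the libraries that stood apart contribute to these values. For Sod2 they were Pim2 (0.984), Dnajb5 (0.984) and Ttc39c (0.980). For Hmox1 they were Nfyb (0.958), Ddit4 (0.946) and Hap1 (0.939). For Gclm they were Tmc7 (0.979), Phlda1 (0.977) and Rab21 (0.976). Ddit4 went from 64.0 TPM in Q111-C to 317 TPM in Q111-T, and was at 92.0 and 94.1 TPM in Q7-C and Q7-T. Among the members themselves, r was 0.94 between Hmox1 and Txnrd1 and between Nqo1 and Srxn1, 0.92 between Hmox1 and Gclm and between Txnrd1 and Slc7a11, and 0.91 between Gclm and both Slc7a11 and Sod2. Sod1 and Cat had r between -0.65 and 0.43 with the other members.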

How the data were processed

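RNA of 12 samples of STHdhQ7 and STHdhQ111 cells was sequenced by the authors as stranded poly(A) libraries on an Illumina NovaSeq, paired-end. The authors trimmed reads with Cutadapt, mapped them with HISAT2 (GRCm38) and derived expression values with StringTie and Ballgown. Tool versions are not given in the sources used here. The authors deposited 1 table of 29428 genes, with an estimated count (whole numbers, not normalized) and a TPM per gene and library. All 24 value columns were mapped to a sample, and 0 were unused. The unit of the estimated counts is not stated, and low counts fell on multiples of 4 more often than on the even numbers beside them, by a factor of 1.449 to 1.841. They may therefore overstate the depth, which covers counting error only, and counts divided by 4 were tried. The authors call the samples biological replicates and the labels do not describe separate cultures, so p-values measure the spread between these libraries. No library had the same counts over all genes as another of its group.

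Groups came from the labels. Genes reaching 0.5 TPM in 3 or more libraries (16127) were scaled by TMM and fitted in one model with a mean per group, using the quasi-likelihood test of edgeR 4.0.16 in R 4.3.3 with Benjamini-Hochberg adjustment over all genes. The SE was derived from the F statistic. TPM was also compared by a two-sided exact permutation test (scipy 1.17.1). Alternatives were DESeq2 1.42.0, limma 3.58.1 on log2(TPM + 0.1, 0.5 or 1), other scalings and filters, fits on 6 libraries, a replicate block, each library left out, and the libraries that stood apart left out. The members and lists were chosen with earlier results of these data known. Besides the 10 genes, the text names 9 fixed redox genes (Nfe2l2, Keap1, Bach1, Slc3a2, Gss, Gsr, Txn1, Prdx1 and G6pdx), up to 3 called list genes at either end of the log2 fold changes per comparison, and the 3 most alike genes for the 3 widest-ranging members. The lists of cell type markers covered neurons, medium spiny neurons, astrocytes, microglia or macrophages, and mesenchymal cells. Gene coordinates are those of the deposited table (GRCm38).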

Additional observations from a re-analysis of the deposited data

Results flagged for a closer look

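In 6 of the 10 genes the response to IFNγ/LPS differed between the lines in the interaction test of edgeR (adjusted p under 0.05). Of all genes, 3.94% were called with a larger and 1.75% with a smaller log2 fold change in Q111. The Q111 response exceeded the Q7 response by 1.84 log2 units for Hmox1, 1.18 for Nqo1, 1.49 for Gclm, 0.89 for Srxn1, 1.33 for Slc7a11 and 1.16 for Sod2. The calls of Hmox1, Sod2, Srxn1 and Slc7a11 were lost under 14, 9, 8 and 3 of the 23 alternatives. Of the named genes of the wider redox list, Sesn2 (2.33), Mafk (1.86) and Osgin1 (1.43) had the larger response in Q111 and Xdh (-1.49) the smaller one.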

How the results depend on the processing

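Each member was refitted under 24 alternatives (23 for the interaction). The leave-one-out counts of members called were 1 to 2 for the treatment of Q7, 7 to 8 for that of Q111, 3 to 7 for Q111-C vs. Q7-C, 4 to 7 for Q111-T vs. Q7-T and 3 to 8 for the interaction. The higher value of the interaction came without Q7-T replicate 2, which gave 2 in Q7-T vs. Q7-C. The lower value of 3 came without Q7-C replicate 2, Q7-T replicate 3, any 1 Q111-C replicate or Q111-T replicate 1. In Q111-C vs. Q7-C the count of 3 came without Q7-C replicate 2 or any 1 Q111-C replicate. For the wider list the ranges were 5 to 8, 14 to 27, 16 to 29, 20 to 37 and 3 to 10 in the same order, with 20 without Q111-T replicate 3, 10 without Q7-T replicate 2, and 3 without Q7-C replicate 2, Q111-C replicate 2 or 3, or Q111-T replicate 1 or 2.

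Without both libraries that stood apart, chosen after seeing the data, members called were 3 in Q7-T vs. Q7-C and 8 in Q111-C vs. Q7-C, and list genes called were 13 for the treatment of Q7, 34 for that of Q111 and 22 for the interaction. Sod1 in Q111-T vs. Q7-T reversed to 0.45. In Q111-C vs. Q7-C, 3 members were called with no filter and 2 with limma at each pseudocount. DESeq2 called 10 list genes in Q7-T vs. Q7-C and 12 in the interaction. Fits on 6 libraries called 3 list genes for the treatment of Q7, 32 for that of Q111 and 21 in Q111-T vs. Q7-T. With limma, Osgin1 in Q111-T vs. Q7-T reversed to 0.42, 0.43 and 0.41 at pseudocounts of 0.5, 0.1 and 1, on a scale whose median had moved. The cause of the other changes was not tested.

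Same-numbered libraries were not paired, since their deviations correlated between -0.42 and 0.30. With a replicate block, members called were 1, 8, 4, 4 and 5 in the order above, and list genes called were 5, 18, 20, 30 and 4. Over the members, 1069 of the values under alternatives kept their side of the threshold, 90 fell short of it, 30 newly passed it and 1 reversed. Among the 1069, 32 changed sign without passing the test on either side. Depth limits the values of Gpx7 and Pir in STHdhQ7 cells, where estimated counts were few, more than those of the 10 genes.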
